A study of Homo sapiens with 12 samples.

Results

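NPPB, SULT1E1 and ACHE are 3 genes of 33514 different symbols in the count tables of this series, chosen by their UMI counts in SCC1 cells, which rose with cetuximab. UMIs are unique molecular identifiers, the tags by which single RNA molecules are counted. The SCC1 change therefore chose the genes and is given here as a description with no test, and so is every comparison of their levels with the untreated SCC1 samples, which are part of that change. SCC6 and SCC25 played no part in the choice. Single-cell RNA sequencing with 10x Genomics 3′ chemistry had been carried out on SCC1, SCC6 and SCC25, which are 3 established human head and neck squamous cell carcinoma lines. Each line was grown for 5 days with daily cetuximab at 100 nM, or with PBS, a phosphate-buffered salt solution that served as control, in 2 replicates. Cetuximab is a therapeutic antibody against EGFR, the receptor of epidermal growth factor, and prevents its activation by ligands. The 12 samples thus formed 6 groups of 2, and a line is a cultured cell population with no stromal or immune cells.

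NPPB encodes the precursor of B-type natriuretic peptide, a hormone best known from the stretched heart muscle, which raises cyclic GMP through the receptor NPR1. It is cut to its active form by proteases such as FURIN and CORIN, and is cleared by NPR3 and the peptidase MME. SULT1E1 encodes oestrogen sulfotransferase, which inactivates oestrogens by adding sulfate from the donor that PAPSS1 and PAPSS2 make, and the sulfatase STS reverses such reactions. ACHE encodes acetylcholinesterase, which ends cholinergic signalling by splitting acetylcholine, for which keratinocytes also carry receptors.

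In the RefSeq annotation of GRCh38.p14, NPPB lies at chr1:11857464-11858945, SULT1E1 at chr4:69821122-69860145 and ACHE at chr7:100889994-100896994. No other annotated gene overlapped any of them. RefSeq promoters, 250 bases before to 50 bases after a transcription start, were matched for 2 of the 3 genes, with 1 promoter for SULT1E1, 3 for ACHE and no entry for NPPB. One promoter of each gene is shown to set side by side what lies before genes that rose together. Both are on the minus strand, at chr4:69860096-69860395 and chr7:100895839-100896138, and capitals mark matches to any of 8 motifs on either strand.
SULT1E1 promoter: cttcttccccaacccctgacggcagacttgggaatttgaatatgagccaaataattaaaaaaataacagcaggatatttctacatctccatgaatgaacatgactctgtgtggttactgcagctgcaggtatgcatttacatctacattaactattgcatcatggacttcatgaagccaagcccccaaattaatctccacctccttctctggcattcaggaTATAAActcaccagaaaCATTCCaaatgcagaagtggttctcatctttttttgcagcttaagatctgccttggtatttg
ACHE promoter: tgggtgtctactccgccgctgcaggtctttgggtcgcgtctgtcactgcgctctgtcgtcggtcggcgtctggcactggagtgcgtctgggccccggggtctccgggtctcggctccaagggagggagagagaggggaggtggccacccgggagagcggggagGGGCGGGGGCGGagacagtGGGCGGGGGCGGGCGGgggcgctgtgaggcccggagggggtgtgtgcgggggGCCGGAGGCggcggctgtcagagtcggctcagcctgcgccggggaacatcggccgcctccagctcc
The SULT1E1 promoter had a GC content of 40.3%, and held 1 match to the TATA box letters TATAAA and 1 to CATTCC, the letters of TEAD factors, which 11.6% and 14.04% of 34943 promoters also held. The ACHE promoter had a GC content of 74.7%. It held 5 matches to the SP1 letters GGGCGG, 2 of which overlapped, and 1 to GCCNNNGGC, the letters of TFAP2 factors, found in 44.9% and 23.2% of all promoters. The other ACHE promoters, at chr7:100894557-100894856 and chr7:100896080-100896379, had 1 match to GGGCGG and 1 to the E-box CACGTG (7.23% of promoters) respectively. The letters of AP-1 (TGANTCA, 7.72%), GATA factors (AGATAA, 10.4%) and interferon response elements (held by 3.57%) were not found in these 4 windows.

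The tables held 23914 cells, 961 to 2854 per sample, with 57057402 to 112170073 UMIs per sample. Cell barcodes in common numbered 3 to 10 between replicates and 1 to 13 between groups. EPCAM, CDH1 and EGFR were present in all 12 samples, while KRT5 and KRT14, markers of basal squamous cells, were at 4.57 UMIs per 1000000 UMIs of the sample (CPM) or less in SCC6 and at 370 CPM or more in the other lines. Summed markers of leukocytes, erythroid cells, hepatocytes and endothelium stayed at or below 0.437 CPM in every sample. The sources do not settle whether the replicates were separate cultures or 1 culture sequenced in duplicate, so every SD and p-value below covers the spread between these samples, which may be technical.

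NPPB stood at 21.8 and 4.89 CPM in the untreated SCC1 replicates and at 158 and 93.7 CPM in the cetuximab-treated ones. Both treated samples lay above both untreated samples, by 9.42-fold on the means, although the untreated replicates themselves differed by 4.46-fold. In SCC6, NPPB was nearly absent without treatment, at 0.0199 and 0.0973 CPM, which were 2 and 10 UMIs in all. With cetuximab it stood at 3.13 and 8.52 CPM, or 238 and 767 UMIs. The ratio of the pooled SCC6 counts was 102.5 (95% interval 58.4 to 199, exact and for counting error only). In SCC25 the untreated replicates stood at 0.235 and 0.0624 CPM and the treated ones at 3.67 and 0.239 CPM. Most of the SCC25 difference came from 1 library, treated replicate 1. Treated replicate 2, with 25 UMIs, exceeded the higher untreated sample by only 1.02-fold, while the untreated sample of its own number had 7 UMIs.

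SULT1E1 was the most even of the 3 genes between replicates of SCC1 and of SCC6, though not of SCC25, where ACHE was. It stood at 0.784 and 0.577 CPM in untreated SCC1 and at 9.43 and 7.52 CPM with cetuximab, a 12.5-fold difference of the means. The SCC6 replicates were at 1.11 and 1.83 CPM without and at 16.2 and 14.8 CPM with the antibody, a 10.6-fold difference. The 4.05-fold difference in SCC25 was smaller, from 0.642 and 0.490 CPM to 1.90 and 2.69 CPM. In no line did treated and untreated samples overlap, and cetuximab-treated SCC6, not SCC1, held the highest level.

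ACHE stood at 1.17 and 0.566 CPM in untreated SCC1 and at 13.1 and 7.75 CPM after cetuximab, a 12.05-fold difference of the means. SCC6 replicates had 0.389 and 0.720 CPM without and 1.84 and 2.66 CPM with treatment, which was 4.06-fold. SCC25 replicates had 0.469 and 0.472 CPM without and 1.81 and 2.40 CPM with treatment, which was 4.46-fold. The treated samples were again above the untreated ones in each line, and treated SCC6 and SCC25 overlapped with each other but not with treated SCC1.

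**Figure D1:**
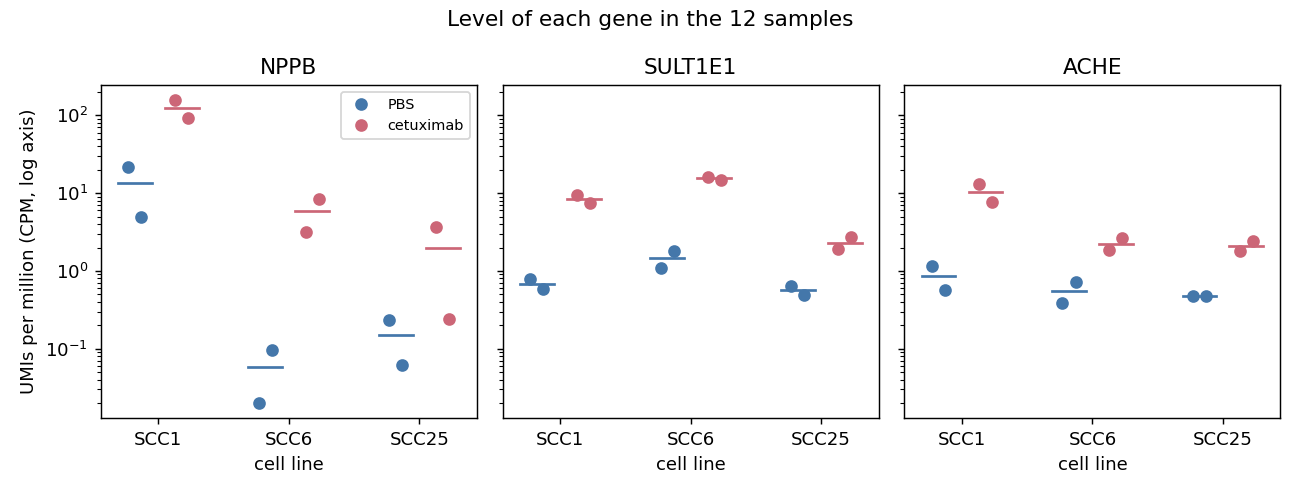
Level of NPPB, SULT1E1 and ACHE in CPM on a log axis in each of the 12 samples (points) with the mean of each group (bars), by cell line and treatment. Cetuximab-treated points lie above the PBS points of the same line in every panel, by as little as 1.02-fold for NPPB in SCC25, and NPPB spans 0.0199 to 158 CPM.

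Across SCC6 and SCC25, the lines that had no part in the choice, both treated samples were above both untreated samples for 3 of 3 genes in each line. The same held for 37.4% of 17897 tested genes in SCC6, for 16.3% in SCC25 and for 9.54% in both. In SCC1, where the choice was made, 24.7% of genes had this order, and 5.51% had it in every line. Sums over a sample do not tell more positive cells from more RNA per cell, and these are given apart further on.

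In SCC6, the quasi-likelihood test of edgeR on the summed counts called all 3 genes higher with cetuximab at an FDR (Benjamini-Hochberg adjusted p) below 0.05, where 2.51% of tested genes were called higher. SULT1E1 rose by 3.18 ± 0.30 on the log2 scale (SE, edgeR FDR 0.00225), NPPB by 6.38 ± 1.41 (FDR 0.0368) and ACHE by 1.80 ± 0.42 (FDR 0.0421). The oestrogen sulfotransferase was the firmest of the 3, and stayed called with any 1 of the 12 samples left out (FDR 0.00335 to 0.0298). The NPPB and ACHE calls were lost without any 1 of the 4 SCC6 samples, with FDR 0.0969 to 0.287 for NPPB and 0.0521 to 0.296 for ACHE, while the changes stayed positive at 5.46 to 7.83 and 1.46 to 2.25. Both were also lost without either treated SCC1 sample, and the ACHE call without untreated SCC1 replicate 1 or either untreated SCC25 sample, at FDR 0.0501 to 0.0555. With the replicate number as a block the FDR was 0.000586 for NPPB, 0.000475 for SULT1E1 and 0.00199 for ACHE, where 9.94% of genes were called higher and 10.1% lower.

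In SCC25, edgeR called no gene of the whole table without the block, although 5.82% of genes had an unadjusted p below 0.05. The changes were 2.00 ± 0.30 for SULT1E1 (edgeR FDR 0.175), 2.12 ± 0.42 for ACHE (FDR 0.379) and 3.75 ± 1.26 for NPPB (FDR 0.672). With the replicate block all 3 genes passed, with edgeR FDR 0.0202 for SULT1E1, 0.00900 for ACHE and 0.0333 for NPPB, where 0.771% of genes were called higher. DESeq2 without a block called SULT1E1 (adjusted p 4.91e-06) and ACHE (0.00151) but not NPPB (0.263), among 83 genes it called higher, or 0.525%. Without treated replicate 1 the SCC25 change of NPPB, fitted without the block, was 0.76 on the log2 scale, so that its size rested largely on that library. The differences between the SCC6 and SCC25 changes were 2.64 ± 1.94 for NPPB, 1.18 ± 0.41 for SULT1E1 and −0.32 ± 0.58 for ACHE, and none passed (edgeR FDR 0.794, 0.456 and 0.960; with the block 0.157, 0.143 and 0.618). No gene of the table passed this test in edgeR without the block, and 8.71% had an unadjusted p below 0.05.

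In SCC1 the fitted log2 changes were 3.23 for NPPB, 3.60 for SULT1E1 and 3.57 for ACHE. Leaving out 1 SCC1 sample at a time moved them over 2.54 to 4.55, 3.44 to 3.75 and 3.16 to 4.07. NPPB was thus the least settled in size, and its lowest and highest values came without untreated replicate 2 and untreated replicate 1 respectively.

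**Figure D2:**
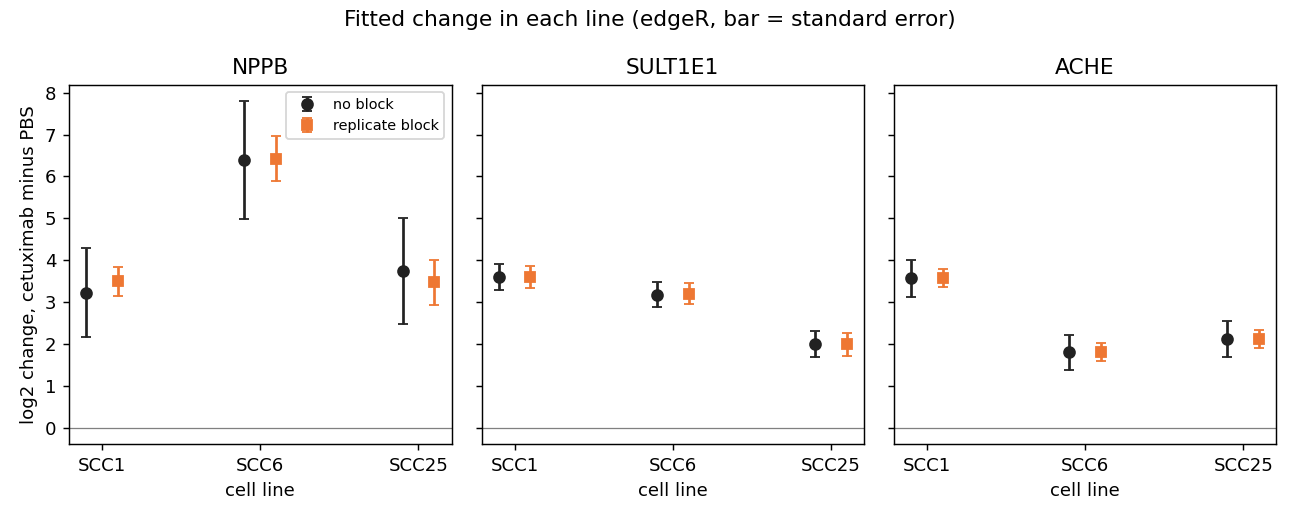
Fitted log2 change, cetuximab minus PBS, of each gene in each line from edgeR without (circles) and with (squares) the replicate block, with standard errors as bars. All 18 points are above 0, with NPPB in SCC6 highest (6.38 without and 6.42 with the block) and ACHE in SCC6 lowest at 1.80.

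Without treatment the lines differed in level. As a description, since untreated SCC1 was part of the choice, NPPB stood higher in untreated SCC1 than in untreated SCC6 by 7.42 and SCC25 by 6.32 on the log2 scale, and its lowest SCC1 value of 4.89 CPM was above the highest of the other lines, 0.235 CPM. SULT1E1 stood lower in untreated SCC1 than in SCC6 by 1.45 and its SCC1 values overlapped with those of SCC25, while the untreated ACHE values of SCC1 and SCC6 overlapped. Between SCC25 and SCC6, edgeR called 40.9% of all genes at an FDR below 0.05 in either direction, and SULT1E1 was among them, higher in SCC6 by 1.51 ± 0.30 (edgeR FDR 0.00281). NPPB, near the lower limit of counting in both lines, was not told apart (1.09 ± 1.66, FDR 0.634), nor was ACHE (−0.36 ± 0.43, FDR 0.531). This call and both misses held with each of the 12 samples left out in turn.

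To compare shares of positive cells, cells were thinned to 15000 UMIs each, and a cell with 1 or more UMIs of a gene was called positive. PTPRC, CD3E, ALB and HBB, which squamous cells should lack, were found in at most 0.0914% of thinned cells in any sample and in at most 0.345% before thinning. NPPB was positive in 10.8% and 2.74% of untreated SCC1 cells and in 27.5% and 21.1% of treated ones. Before thinning these shares were 20.3%, 6.84%, 41.3% and 36.4%. In untreated SCC6 the NPPB shares of 0.0377% and 0.0411% were at the level of background, and in treated SCC6 they were 2.28% and 3.84%. In SCC25 they were 0.274% and 0.0400% without and 1.67% and 0.151% with treatment. The last of these came from 3 cells, and its exact 95% interval of 0.0311% to 0.439% includes the background.

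SULT1E1 was positive in 1.07% and 0.488% of untreated and in 10.8% and 8.46% of treated SCC1 cells. In SCC6 the shares were 1.43% and 2.38% without and 19.8% and 19.3% with treatment, the latter replicates being within each other's intervals of 18.2% to 21.3% and 17.4% to 21.3%. In SCC25 they were 0.868% and 0.639% without and 1.88% and 3.61% with treatment. ACHE was positive in 1.23% and 0.488% of untreated and 15.2% and 7.87% of treated SCC1 cells. Its shares were 0.679% and 1.15% against 2.55% and 3.66% in SCC6, and 0.640% and 0.679% against 2.60% and 3.06% in SCC25. Every share of these latter genes was above that of the 4 absent genes.

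Over SCC6 and SCC25 together, the mean share of positive cells was higher with cetuximab by 9.80 percentage points for SULT1E1, 2.18 for ACHE and 1.89 for NPPB. An exact two-sided permutation test within lines gave p = 0.0556 for SULT1E1 and ACHE, the smallest that its 36 arrangements allow, and p = 0.111 for NPPB. The design can therefore not reach 0.05 here.

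**Figure D3:**
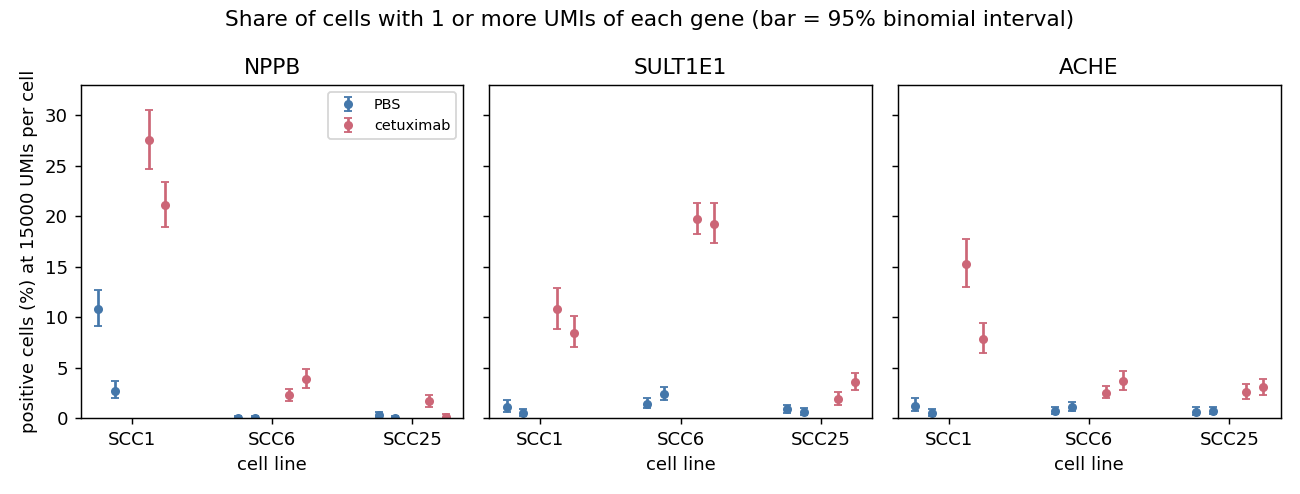
Share of cells, thinned to 15000 UMIs each, with 1 or more UMIs of NPPB, SULT1E1 or ACHE in each of the 12 samples, with exact 95% binomial intervals for counting error only. NPPB is highest in treated SCC1 (27.5% and 21.1%) and SULT1E1 in treated SCC6 (19.8% and 19.3%).

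The mean share of positive cells and the mean UMIs per positive cell after thinning were also set apart. The share of SULT1E1-positive cells was 12.3-fold higher with cetuximab in SCC1, 10.2-fold in SCC6 and 3.64-fold in SCC25, with 1.71 and 1.501, 1.12 and 1.24, and 1.09 and 1.14 UMIs per positive cell without and with treatment. The share of ACHE-positive cells was 13.4-fold, 3.40-fold and 4.29-fold higher, with 1.13 and 1.58, 1.04 and 1.04, and 1.06 and 1.07 UMIs per positive cell. A positive cell cannot have fewer than 1 UMI, and most of these means lie near that floor, so that a change in the amount per positive cell could hardly be seen for these genes. NPPB in SCC1 was clear of the floor, with a 3.59-fold higher share and 2.55-fold the UMIs per positive cell, from a mean of 2.62 to 6.67. In SCC6 treated cells had 2.51 NPPB UMIs per positive cell, against 1 positive cell in each untreated sample, which allows no ratio. In SCC25 the NPPB share was 5.78-fold higher with 1.125-fold the UMIs per positive cell, on 6 and 1 positive cells without and 32 and 3 with treatment.

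NPPB was held by few cells. In treated SCC1, the 1% of cells with most NPPB held 31.3% and 30.2% of its UMIs, and 144 and 140 cells with 10 or more UMIs held 93.6% and 88.5%. A single cell of treated replicate 1 carried 785 NPPB UMIs. The thinned NPPB UMIs of these samples, if scattered evenly at random (a Poisson law of the same mean), would have made 86.0% and 72.9% of cells positive, against the 27.5% and 21.1% measured. In treated SCC6 the top 1% of cells held 74.8% and 63.1%, and in treated SCC25 replicate 1 they held 85.4%. The top 1% of cells thus held a larger share in these samples than in treated SCC1, where NPPB was more abundant. That share is tied to how many cells were positive, which was 3.12% and 7.92% before thinning in treated SCC6. In treated SCC25 replicate 1, 3.30% of cells were positive before thinning.

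SULT1E1 in SCC6 showed the opposite distribution. The top 1% of treated SCC6 cells held only 10.2% and 8.34% of its UMIs, no cell had more than 8, and a Poisson law would have given 21.1% and 21.9% positive cells, against the 19.8% and 19.3% measured. In treated SCC1 the top 1% held 19.1% and 21.8%, and the Poisson share of 16.1% and 10.9% exceeded the 10.8% and 8.46% measured. ACHE was likewise close to even scatter in treated SCC6, with 2.55% and 3.66% positive against 2.66% and 3.65%, and in treated SCC25, with 2.60% and 3.06% against 2.62% and 3.35%. In treated SCC1, where ACHE was more abundant, the gap was wider, with 15.2% and 7.87% positive against 21.6% and 11.7%. Mild unevenness could hardly be seen at the lower levels of SCC6 and SCC25, so these gaps do not rank the lines. The highest ACHE count in 1 cell was 38, in SCC1.

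**Figure D4:**
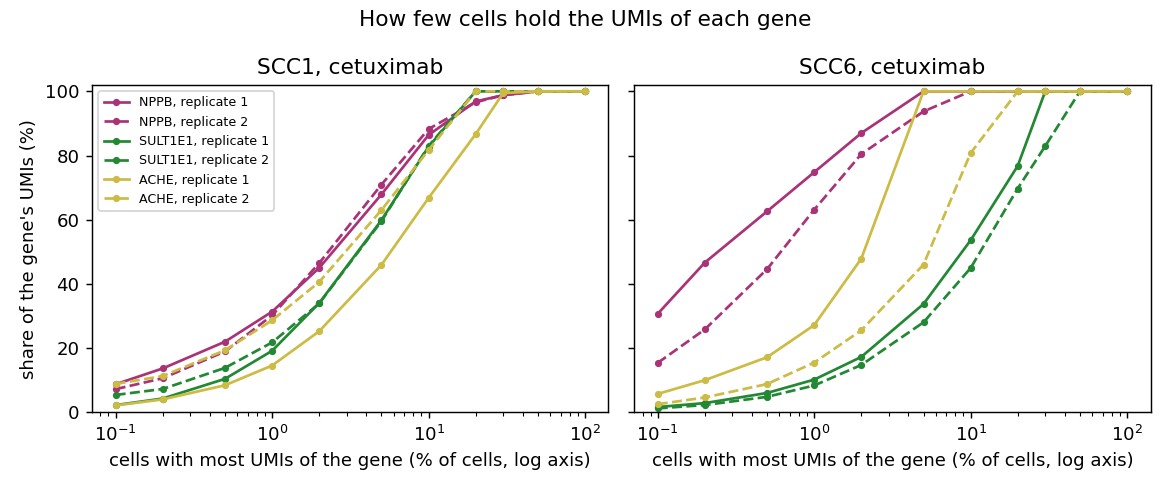
Share of each gene's UMIs (before thinning) held by the cells with most of them, against the percentage of cells on a log axis, in both cetuximab-treated replicates of SCC1 and SCC6. In SCC6 the NPPB curves rise first, with 74.8% and 63.1% of UMIs in 1% of cells, and the SULT1E1 curves last, with 10.2% and 8.34%.

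Positive and negative cells were compared within each treated sample, as log2 ratios of mean thinned counts and with no test, since cells of 1 sample are not replicates. The NPPB-positive cells of treated SCC1 held more of ANKRD2 (1.61 and 1.69) and ANKRD1 (1.30 and 1.40) than the negative cells. So did those of untreated SCC1, with 1.20 and 1.63 for ANKRD2 and 1.46 and 1.77 for ANKRD1. ANKRD1 and ANKRD2 encode stretch-responsive ankyrin repeat proteins of muscle. SGK1, a kinase (1.30 and 1.89), and LTB, a lymphotoxin (1.25 and 1.77), were also among the leading genes. ANKRD1 (1.99 and 1.98) was also higher in NPPB-positive cells of treated SCC6, whereas ANKRD2 was not in both replicates (0.49 and −0.23). The positive cells were deeper, with 63832.5 against 53479 and 58916 against 51498 UMIs in the median before thinning in treated SCC1.

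Gene lists set the 3 kinds of positive cells apart. In treated SCC1 the median log2 ratio over cell cycle genes was 0.64 and 0.24 in NPPB-positive cells, with 15 of 15 and 13 of 16 genes higher. In SULT1E1-positive cells it was −2.26 and −0.58, with 0 of 15 and 0 of 16 genes higher, and in ACHE-positive cells it was −0.75 and −0.33. The SULT1E1-positive cells were shallower, with 50894 against 56060 and 47486.5 against 52943 UMIs in the median before thinning. The part of depth in these values was not tested. All medians over all compared genes lay between −0.03 and 0.05. Cell cycle genes thus stood lower in cells positive for the sulfotransferase or for acetylcholinesterase, and higher in those positive for NPPB, in both treated SCC1 samples. In SCC6 and SCC25, the SULT1E1-positive cells had lower medians as well (−0.17 and −0.25, then −0.31 and −0.58), and so had ACHE-positive cells (−1.47 and −0.67, then −0.92 and −1.95). For NPPB the other lines did not follow SCC1, with 0.10 and −0.52 in SCC6 and −0.43 in the 1 SCC25 sample that had 30 or more positive cells. Without treatment, the cell cycle median was 0.23 and 0.23 in NPPB-positive SCC1 cells and −0.43 and −0.43 in SULT1E1-positive SCC6 cells.

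ACHE-positive cells also held more interferon response transcripts in treated SCC1 (median 0.37 and 0.39, 18 of 20 and 18 of 19 genes higher) and SCC25 (0.74 and 0.73, 18 of 18 and 16 of 16). In SCC6, where 2 and 3 genes of the list reached the level for comparison, the medians were −0.17 and −0.09. Chemokines led the ACHE-positive cells of SCC1, with CCL5 at 1.53 and 1.63, CXCL11 at 1.29 and 1.97 and CXCL10 at 1.11 and 1.10, of which CXCL10 and CXCL11 belong to the interferon list. The ACHE-positive cells also differed in depth and mitochondrial share. Before thinning they had a median of 49935 against 56059 and 51588 against 52470 UMIs in treated SCC1, and 40267.5 against 42325.5 and 43127 against 48369 in treated SCC25. Their median mitochondrial share was 2.88% against 2.45% and 3.87% against 3.23% in SCC1, and 3.25% against 2.81% and 4.91% against 4.29% in SCC25. The part of these differences in the list values was not tested. The matrix gene FN1 (1.48 and 1.13) and the phospholipase gene HRASLS2 (1.06 and 1.84) were the other leading genes of ACHE-positive SCC1 cells. SULT1E1-positive cells of SCC1 were led by the neurotrophin BDNF (1.21 and 1.03), AHNAK2 (0.97 and 1.04), PHLDB1 (0.92 and 1.11), FN1 (0.91 and 1.05) and OLFML2A (1.03 and 0.88). In treated SCC6, BDNF was at 0.17 and 0.31 and the others ran from −0.06 to 0.21. In treated SCC25, BDNF was at −0.97 and 1.19 and the others ran from −0.29 to 0.74. The interferon median of SULT1E1-positive SCC1 cells was 0.13 and 0.12, and that of NPPB-positive SCC1 cells 0.01 and 0.03.

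Squamous differentiation medians were lower in NPPB-positive cells of treated SCC1 (−0.53 and −1.15) and SCC25 (−1.13), and at 0.00 and 0.04 in SCC6. They rest on 2 or 3 genes per sample, in SCC25 on 2 genes and 32 positive cells. The log2 ratio of the UMIs summed over the whole list was −1.24 and −1.39 in SCC1. This summed ratio was only −0.19 in SCC25, and −0.16 and 0.08 in SCC6. For SULT1E1 these medians ran from −0.44 to 0.02 over the 6 treated samples and for ACHE from −0.60 to 0.27. Over the summed list, however, SULT1E1-positive cells of treated SCC1 stood higher than negative cells, at 0.40 and 0.47. Their summed ratios were 0.01 to 0.07 for treated SCC6 but −0.42 to −0.05 for treated SCC25. ACHE-positive cells gave summed ratios of 0.12 to 0.34 (treated SCC1), −0.16 to 0.06 (treated SCC6) and −0.34 to −0.16 (treated SCC25). Mesenchymal genes stood higher in NPPB-positive cells (0.51 and 0.72 in SCC1, 0.20 and 0.32 in SCC6, 0.41 in SCC25) and in SULT1E1-positive cells (0.46 and 0.62 in SCC1, 0.14 and 0.21 in SCC6, 0.34 and 0.51 in SCC25). For ACHE they ran from −0.09 to 0.77. These mesenchymal medians rest on the genes that reached 20 CPM, 5 of 13 in treated SCC1 and 7 or 8 in treated SCC6 and SCC25. VIM, at 0.719 and 1.23 CPM in treated SCC1, was not among them there. Basal genes ran from −0.34 to 0.49 and genes of EGFR and MAPK output from −0.35 to 0.57 over the 3 genes and all treated samples. Without treatment, NPPB-positive SCC1 cells had squamous differentiation medians of −0.59 and −0.37, and mesenchymal medians, on 5 genes, of 0.86 and 0.87. SULT1E1-positive cells of untreated SCC6 had mesenchymal medians, also on 5 genes, of 0.14 and 1.10.

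**Figure D5:**
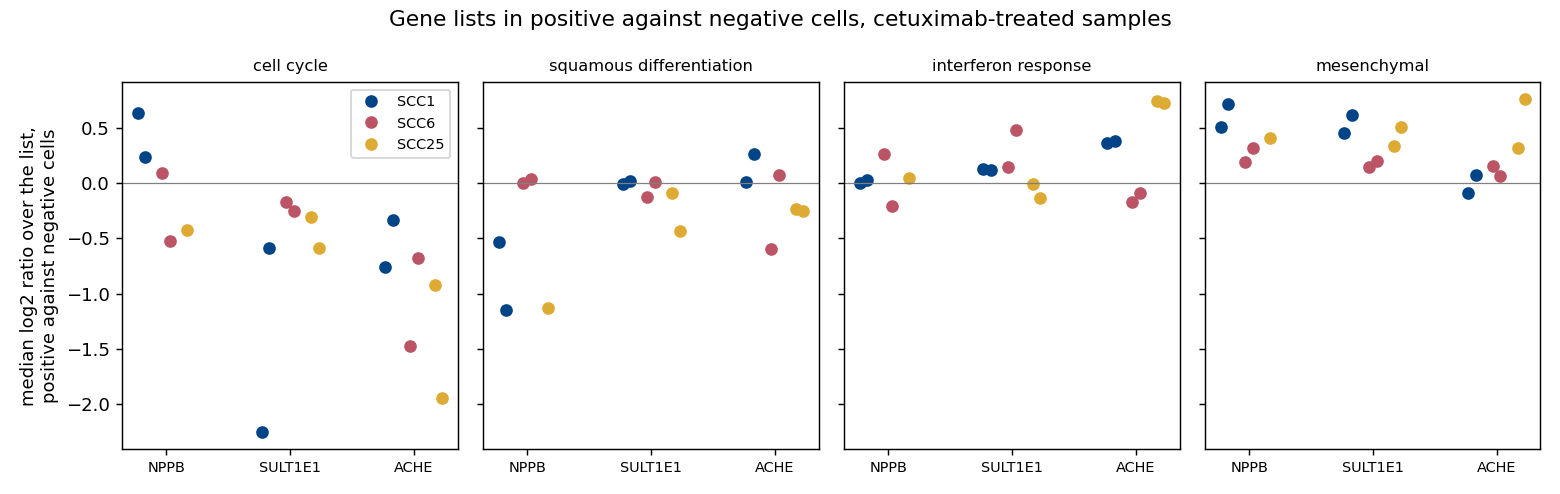
Median log2 ratio of 4 gene lists in cells positive against cells negative for NPPB, SULT1E1 or ACHE, 1 point per cetuximab-treated sample with 30 or more positive cells, coloured by line. Cell cycle points are below 0 for SULT1E1 and ACHE in all 6 samples and above 0 for NPPB in SCC1, and interferon points of ACHE are above 0 in SCC1 and SCC25 but not in SCC6.

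Few cells held 2 of the 3 genes. In treated SCC1, 22 and 16 cells were positive for both SULT1E1 and ACHE, 1.43 and 1.78 times the number that the separate shares would give. For NPPB with ACHE the ratios were 1.04 and 0.98, from 41 and 22 cells, and for NPPB with SULT1E1 they were 0.83 and 1.33, from 23 and 32 cells. In treated SCC6, where SULT1E1 was most frequent, 13 and 10 cells held both SULT1E1 and ACHE, at ratios of 1.00 and 0.86.

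Among 12860 genes, those most like each member over the 12 samples were found by the root mean square difference of centred log2 levels, which draws on the samples that chose the members. SULT1E1 was most like BDNF (0.58), COL4A4 (0.59), a collagen chain, and PSG5 (0.68), a pregnancy-specific glycoprotein. ACHE was most like FSTL3 (0.46), a follistatin-like inhibitor, RASGRP3 (0.51), a Ras exchange factor, and OLR1 (0.56), a scavenger receptor. The genes nearest to NPPB were EPSTI1 (1.11), FSTL1 (1.20) and MX2 (1.35). The measure is not scaled for range, so the wide range of NPPB enlarges its differences from most genes. The difference between ACHE and SULT1E1 was 0.99, against 1.91 between NPPB and ACHE and 2.37 between NPPB and SULT1E1. By place among the 12860 genes, ACHE was number 107 and SULT1E1 number 1380 in likeness to NPPB. SULT1E1 was number 777 for ACHE and ACHE number 81 for SULT1E1, with NPPB at 11926 and 12309. MX2, an interferon-induced GTPase at 12.1 to 98.9 CPM in SCC1, was at 0 in all 4 SCC25 samples and at 0.229 to 0.745 CPM in SCC6.

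Markers of other cells were set beside these levels. Of 3 cardiomyocyte markers, MYH6 was at 0 in 11 of 12 samples and MYBPC3 at or below 0.0876 CPM, while TNNT2 was higher with treatment in SCC1 and SCC6, where NPPB was too. In SCC25 the treated library with most NPPB had 0.0568 CPM of TNNT2, below the untreated 0.111 and 0.143 CPM. The sum of the 3 markers was 0.0870 to 0.240 CPM in untreated and 1.65 to 1.88 CPM in treated SCC1, 0.175 to 0.229 and 0.989 to 1.38 CPM in SCC6, and 0.136 to 0.178 and 0.0681 to 0.182 CPM in SCC25. Of 3 neuronal markers ELAVL4 was at 0 throughout, and the sum was 0.302 to 1.89 CPM with overlapping ranges of treated and untreated samples in each line. Fibroblast markers, mainly COL1A1 and LUM, summed to 2.95 to 3.21 CPM in untreated and 3.48 to 5.78 CPM in treated SCC1, 0.917 to 2.72 and 19.6 to 23.7 CPM in SCC6, and 15.5 to 34.8 and 34.4 to 70.4 CPM in SCC25. The part of these transcripts in the results was not tested.

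A list of 61 other genes covered the natriuretic peptide, sulfonation and cholinergic systems. Of the 47 that were tested, edgeR without the block called 0 in SCC1, SCC6 and SCC25, where it called 0.0168%, 3.81% and 0% of all genes, and 8, 9 and 1 of them had an unadjusted p below 0.05, as had 8.77%, 19.9% and 5.82% of all genes. DESeq2 called 0, 1 and 0 of them, and 1.77%, 9.91% and 0.639% of all genes to which it gave an adjusted p. Their median log2 change was 0.15, 0.14 and 0.02, against 0.00, 0.00 and −0.01 over all genes. With the replicate block, 3 were higher and none lower in SCC1, 7 higher and 3 lower in SCC6, and none passed in SCC25, where 4.45% (2.46% higher), 20.1% and 0.978% of all genes were called. The genes named from these block calls were chosen after their values were seen.

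In the natriuretic peptide system, 10 of 12 genes were tested, with median changes of 0.78, 0.39 and 0.35 in SCC1, SCC6 and SCC25. The most abundant was FURIN, a proprotein convertase at 14.3 to 23.9 CPM in SCC1. MME, the peptidase that degrades natriuretic peptides, was at 4.43 to 7.19 CPM in SCC1 and at 0.4999 to 0.947 CPM in SCC6. PDE5A, which breaks down cyclic GMP, was at 0.928 and 1.07 CPM in untreated and 2.63 and 2.02 CPM in treated SCC1. In SCC6 it stood at 2.04 and 1.84 CPM without and 6.24 and 4.14 CPM with treatment, and passed with the block (1.16 ± 0.27, edgeR FDR 0.0212). With the block NPPC, which encodes C-type natriuretic peptide, was also higher in SCC6 (1.30 ± 0.33, FDR 0.0288), MME was lower there (−0.85 ± 0.25, FDR 0.0454) and PCSK6, a convertase related to FURIN, was higher in SCC1 (2.21 ± 0.50, FDR 0.0484).

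In the sulfonation system, 21 of 23 genes were tested, with median changes of 0.11, −0.19 and −0.04. The most abundant were HSD17B12 and HSD17B1, hydroxysteroid dehydrogenases, and SUMF1, which activates sulfatases. HSD17B1 was at 27.7 to 39.8 CPM in SCC1 and 40.0 to 55.6 CPM in SCC25, but at 0.924 to 1.47 CPM in SCC6, where SULT1E1 was highest. PAPSS2, which makes the sulfate donor, was at 12.6 and 13.02 CPM in untreated and 19.7 and 26.4 CPM in treated SCC1, and with the block it passed there (0.79 ± 0.14, edgeR FDR 0.0240) and in SCC6 (0.77 ± 0.15, FDR 0.0124). SULT2B1, the cholesterol sulfotransferase of keratinocytes, went in opposite directions. It stood at 2.90 and 4.03 CPM in untreated and 5.49 and 8.23 CPM in treated SCC1, but at 25.7 and 23.7 CPM in untreated and 9.12 and 13.1 CPM in treated SCC6. With the block it was higher in SCC1 (0.93 ± 0.20, edgeR FDR 0.0395) and lower in SCC6 (−1.40 ± 0.19, FDR 0.00312). SULT1B1 (1.94 ± 0.55, FDR 0.0407) and GPER1, a membrane oestrogen receptor (1.63 ± 0.35, FDR 0.0155), were higher in SCC6 with the block.

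In the cholinergic system, 16 of 26 genes were tested, with median changes of 0.07, 0.16 and −0.00. The choline transporter-like genes SLC44A2 and SLC44A1 were the most abundant, at 26.3 to 135 and 42.9 to 97.0 CPM over the 12 samples. CHRNB1, a nicotinic receptor subunit, was at 34.5 to 43.2 CPM in SCC1 and rose in SCC6 with the block (0.63 ± 0.17, edgeR FDR 0.0342), from 4.76 and 7.15 to 11.4 and 9.90 CPM. CHRNA9, another subunit, rose there by 2.87 ± 0.60 (FDR 0.0221) from 0.0199 and 0.0486 to 0.250 and 0.344 CPM. LYPD6B, a modulator of nicotinic receptors, fell there by 0.99 ± 0.18 (FDR 0.00953).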

How the data were processed

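Single-cell RNA sequencing counts were analysed for 12 samples. The deposited values are raw UMI counts per gene and cell, which, per the labels and the methods of the study, the authors made with Cell Ranger against GRCh38 and loaded into Monocle; their versions are not stated here. Of 33538 rows, 24 repeated a symbol and were added to it. No cell filter or doublet caller was applied. Counts were summed per sample and tested with edgeR 4.0.16 (R 4.3.3; TMM factors 0.835 to 1.14, filterByExpr, 1 mean per group, 6 residual degrees of freedom) over 17897 genes, two-sided, with Benjamini-Hochberg adjustment. DESeq2 1.42.0 was an alternative, as were other scaling, no filter, the replicate block, smaller fits, cell filters and samples left out. Tested on simulated counts for SCC6 (17286 genes), the fit recovered 72.7% of changes of 2 and 86.0% of changes of 3 on the log2 scale, with 5 false calls.

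Same-numbered samples of a line deviated together from their group means (correlations 0.377, 0.349 and 0.598 in SCC1, SCC6 and SCC25), so the replicate numbers were taken as pairs; that pairing comes from the data and the sample labels. Cells were thinned to 15000 UMIs, which left out 851 and kept 23063 (Python 3.11.15). Left out were 2.53% and 2.39% of untreated and treated SCC1 cells, 2.47% and 6.12% in SCC6, and 4.15% and 2.81% in SCC25. Levels used log2(CPM + 0.5) for likeness only. Genes in positive against negative cells needed 20 CPM, and samples 30 positive cells. Replicates differed beyond sampling noise (chi-square of 132 to 391 per degree of freedom), so none was a repeated library. The 3 genes, the gene lists and the tests were chosen with earlier results of these data known. Named genes were the 3 members, the 3 most abundant genes of each system, those called, the 3 most alike and the 5 leading in positive cells, of which 1 is not reported here. Whether depth or the spread between replicates limited the calls at a given level was not tested. Tests of untreated SCC1 against the other lines had been planned and are given without a test, because those samples were part of the choice.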

Additional observations from a re-analysis of the deposited data

Results flagged for a closer look

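The changes of SULT2B1 in SCC1 and SCC6 went in opposite directions, with no overlap of treated and untreated samples in either line and a difference of 2.31 on the log2 scale. This difference did not pass in edgeR without the replicate block (FDR 0.481) and passed with it (FDR 0.0128).

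GPER1 stood at 0.558 and 1.88 CPM in untreated and 3.75 and 4.0005 CPM in treated SCC6, and at 3.14 and 5.11 CPM in untreated and 2.04 and 2.53 CPM in treated SCC25. The samples of the 2 lines moved in opposite directions, with a difference of 2.36 on the log2 scale, which did not pass in edgeR (FDR 0.409, with the block 0.0645).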

How the results depend on the processing

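Of 455 values recomputed under other settings, 417 were counted as unchanged. For levels and changes with an FDR, this meant the same direction and side of the threshold. The SCC1 changes and the counts of called system genes were judged by size only, with no threshold. The shares of positive cells were all counted as unchanged, but their permutation test could not pass the threshold in this design. For these shares the count therefore says nothing about a call. With the replicate block, edgeR called NPPB (3.47), SULT1E1 (1.99) and ACHE (2.12) in SCC25 and 3 and 10 genes of the 3 systems in SCC1 and SCC6, and it changed no other call of the 3 genes in SCC6 or SCC25, though it did that of the SULT2B1 difference given above. Without the filter on low counts the SCC25 changes were called too (3.75, 2.00 and 2.13), where 0.440% of all genes were called higher, as were 1 and 3 genes of the systems in SCC1 and SCC6, where 0.938% and 4.76% of all genes were called. DESeq2 called SULT1E1 (2.00) and ACHE (2.13) in SCC25 and 1 gene of the systems in SCC6. With only the SCC6 samples ACHE was not called (1.82). Without the 1% of cells with most UMIs of the gene, an alternative chosen after seeing the data for SCC6 and SCC25, NPPB in SCC6 was not called. Its fitted change of 10.4 there has no meaningful size, since NPPB was then at 0 CPM in both untreated SCC6 samples. The SCC1 change of SULT1E1 under this setting was 5.44, since most positive untreated cells were then left out. With 1 sample left out at a time, which for groups outside a comparison was added after seeing the data, the SCC6 change ranged over 5.46 to 7.83 for NPPB and 1.46 to 2.25 for ACHE, and 0 to 1 genes of the systems were called in SCC6. Differences that were never called changed sign, namely the untreated SULT1E1 level in SCC1 minus SCC25 (−0.077 to 0.22), the untreated ACHE level in SCC1 minus SCC6 (−0.22 to 0.74) and in SCC25 minus SCC6 (−0.70 to 0.085), and the ACHE change in SCC6 minus SCC25 (−0.66 to 0.13). Untreated NPPB in SCC25 against SCC6 had no value in the fit of those groups alone, where it fell below the filter. The cause of these shifts was not tested.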
